A study of Mus musculus with 20 samples.

Results

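A single pool of total RNA from newborn (postnatal day 1) Swiss-Webster mouse cortex was measured on 10 arrays, 5 at a first site and 5 at site 2, of the 20 arrays of the series. The 10 arrays were chosen by their titles, and all 10500 probes of each were used, on the log2 scale of the positive intensities. The arrays were GE Healthcare (Amersham) CodeLink arrays, on which 1 biotin-labelled sample is read in 1 colour with an oligonucleotide probe per transcript. The other 10 arrays held adult C57/B6 retina RNA, run in the same way on 5 arrays per site, and serve here to show where the cortex pool differed. No genetic change or treatment is named for either pool. The number of animals in a pool is not given in the sources used here. The labels call the 5 arrays of a group technical replicates. A p-value below is therefore set against the spread between arrays within a group and not between animals. In limma this spread was pooled over all 4 groups, retina included. The SE of a cortex difference can thus be smaller or larger than the cortex arrays alone would give. Arrays with no site in their titles were taken as the first site.

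The cortex of a newborn mouse is built mainly of young neurons. Glutamatergic projection neurons, made by radial glia, take up their layer identity and grow axons at this age, interneurons arrive from the ventral forebrain, and astrocytes and oligodendrocytes have only begun to form. The labelled tissue was checked against 9 markers of newborn cortex, of which 6 were tested. Neurod6, a helix-loop-helix factor of excitatory cortical neurons, read 27.4 at the first site and 26.7 at site 2 (geometric means of 5 arrays), against 0.385 and 0.346 in retina. Tbr1 and Bcl11b, factors of deep-layer neurons, read 2.65 and 2.72, and 3.68 and 4.12. Lhx6, a factor of interneurons, read 1.71 and 1.12, and Emx1, a factor of the dorsal forebrain, 0.418 and 0.242 (unresolved). These 5 were higher in cortex than in retina at both sites, while Gad1, an enzyme that makes GABA, was lower in cortex (14.8 and 11.4) than in retina (37.8 and 33.7). The intensities carry no unit, and 1 lies near the median probe of every array. The brightness of different probes depends on the probe as well as on the transcript, so levels are compared here between arrays for the same probe only. No label or file header states a background or a saturation limit, so folds and shares that involve very dim or very bright values describe the numbers as deposited and may not measure the transcript in proportion.

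A library apart from the rest has to be named first. On site 2 replicate 5 the median probe lay 0.392 log2 from the average of the remaining arrays at its site, against 0.132 to 0.184 for the other 4 site 2 arrays and 0.116 to 0.168 at the first site. On this array 427 probes stood at least 4-fold above every other site 2 array, compared with 2 to 15 on the other site 2 arrays and 1 to 5 on those of the first site. Its mean correlation with the arrays of its own site was 0.921, where the others had 0.968 to 0.972. Results that rest on it are given with and without it. Over pairs of arrays, Pearson's r of the log2 values was 0.985 to 0.988 within the first site, 0.918 to 0.992 within site 2 and 0.902 to 0.973 between sites (across probes, which are not independent replicates).

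Most of the cortex transcripts that could be measured read alike at both sites to within 2-fold, and a smaller number were called different. Of 10339 probes tested, 7460 (72.2%) were held, meaning that the whole 95% interval of the site difference lay inside 2-fold in either direction. Another 745 (7.21%) were called different, with an adjusted p under 0.05 in limma and at least a 2-fold change: 547 (5.29%) higher at site 2 and 198 (1.92%) lower. The remaining 2134 (20.6%) were unresolved, meaning neither. Technical replicates make small differences significant, and at an adjusted p alone 4841 probes (46.8%) passed. Of the called probes, 61 were higher and 11 lower by at least 4-fold, and the median size of the difference over all probes was 0.36 log2. All 5 site 2 arrays lay above all 5 first-site arrays for 434 of the 547 probes called higher and below them for 193 of the 198 called lower, where over all tested probes 13.2% lay fully above and 18.7% fully below. Without site 2 replicate 5, 579 were called higher, 160 lower and 7637 held. With the 10 cortex arrays fitted alone, 459 were called higher, 198 lower and 7490 held.

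The outcome differed with brightness. The probes were divided into 4 classes of equal size by mean log2 intensity over the 10 cortex arrays. In the dimmest class, below an intensity of 0.213, 36.5% of the probes were held, 303 were called higher and 11 lower. In the second class 73.9% were held, with 146 higher and 48 lower, and in the third 88.1%, with 58 higher and 71 lower. In the brightest class, above 3.34, 90.1% were held, with 40 higher and 68 lower. In the deposited values the balance of the calls thus went from higher to lower with brightness, and the median difference was 0.49, 0.14, -0.05 and -0.15 log2 from the dimmest to the brightest class. This pattern depended on the scaling. After quantile normalization the dimmest class had 44 higher and 55 lower and the brightest 51 higher and 24 lower, so that the balance was the opposite, and after cyclic loess normalization they had 63 and 38, and 54 and 18. The called share of the dimmest class, 12.2% as deposited against 7.51% in the second, was then 3.83% and 3.91% against 7.66% and 6.54%. With every intensity raised to the 25th percentile of all values, 0.194, it was 0.232%, and 88.9% of that class were held, above the 77.8% of the second. Under a stricter limit of 1.5-fold, 8.66% of the dimmest class and 58.6% of the brightest were held.

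**Figure D1:**
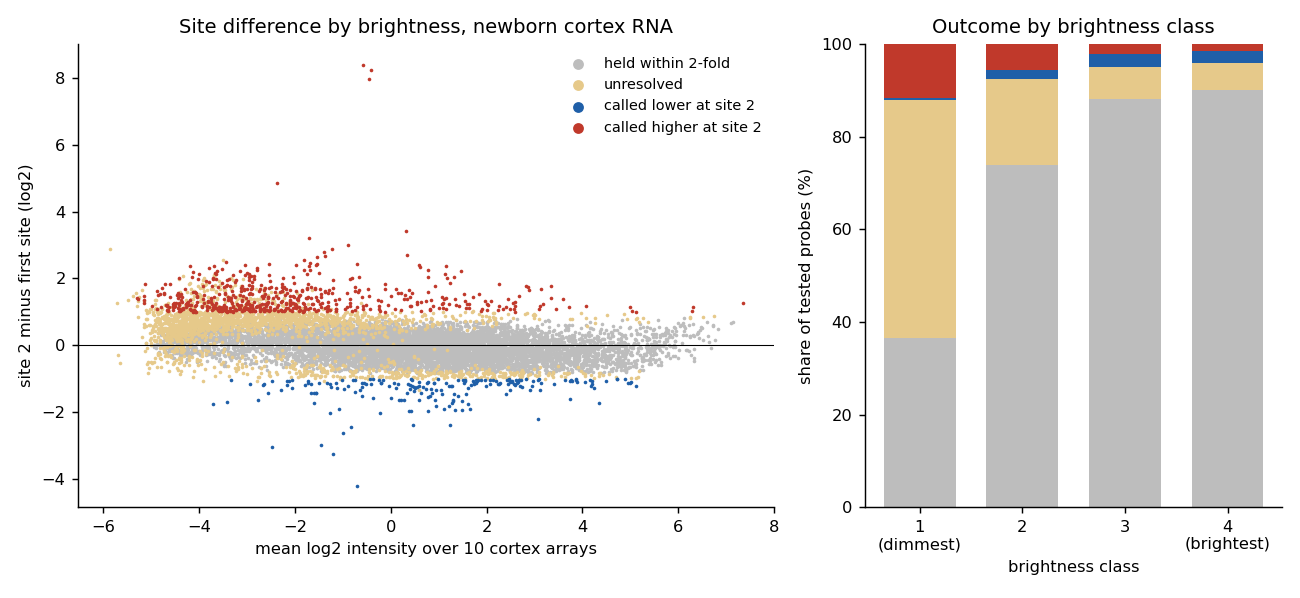
Left, the site difference of each tested cortex probe (site 2 minus first site, log2) against its mean log2 intensity over 10 arrays, coloured by outcome; right, the share of each outcome in each brightness class, in percent. Called higher probes crowd the dim end, and the held share grows from 36.5% in the dimmest class to 90.1% in the brightest; both are for the values as deposited, and after quantile normalization the dimmest class had 44 higher and 55 lower.

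The distribution of each array also differed between sites. The 25th percentile of the log2 values was -2.45 ± 0.03 at the first site and -2.05 ± 0.07 at site 2 (mean ± SD, n = 5 each), and the 95th percentile was 4.33 ± 0.07 and 4.12 ± 0.09. Neither pair overlapped between sites, with an exact 2-sided permutation p of 0.0079 for each, the smallest that 5 against 5 arrays can give (0.0095 adjusted over 6 array summaries). The share of calls that were higher depended on the scaling. It was 73.4% as deposited, 49.2% after quantile normalization (251 higher and 259 lower), 57.3% after cyclic loess normalization (268 and 200), 54.0% with the floor at the 25th percentile (214 and 182), and 57.3% with the dimmest class left out (254 and 189). The spread within a site was 0.142 at the first site and 0.201 at site 2 (exact 2-sided permutation p = 0.21, 0.45 adjusted over 5 tests), and without site 2 replicate 5 the difference turned to -0.02 (exact permutation p = 0.19).

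The 3 named genes of smallest range over the 10 arrays were taken from each brightness class. In the brightest class, Sox11, a transcription factor of newborn neurons, read 12.6, 12.9, 12.5, 12.8 and 12.2 on the first-site arrays and 11.9, 12.8, 11.3, 11.6 and 12.8 on those of site 2. The 10 values overlapped, and the difference was -0.06 log2 (SE 0.13). Sec11a, a subunit of the signal peptidase, read 9.56 to 10.1 and 9.02 to 10.3, and Mark3, a microtubule-affinity regulating kinase, 9.67 to 11.6 and 9.80 to 11.6. In the third class the smallest ranges belonged to Spata5, Anxa6 (annexin A6) and Crot (carnitine octanoyltransferase), with differences of -0.06, 0.11 and 0.02. In the second they belonged to Dnmt3b, a de novo DNA methyltransferase (0.663 to 0.764 and 0.638 to 0.743), Mrpl57 and Tpbg. Even in the dimmest class Cd14, a receptor of myeloid cells, read 0.156 to 0.196 and 0.157 to 0.208, and Nos3 and Cfap97 held as closely, with differences of -0.09 and -0.12. These 12 genes were chosen for their small range, so their differences are a description.

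At the top of the scale the sites differed in how far the brightest probes spread. At the first site 5 to 23 probes (median 7) lay within 10% of the brightest probe of an array, and at site 2 1 probe did on every array (exact 2-sided permutation p = 0.0079). The brightest probe itself read 103 to 125 on the first-site arrays and 225 to 272 on the site 2 arrays. Tuba1c, an alpha-tubulin, read 94.7, 101, 109, 116 and 104 at the first site and 261, 248, 272, 259 and 225 at site 2. All site 2 values were higher, the groups did not overlap, and the difference was 1.27 log2 (SE 0.08, adjusted p = 3.2e-09 in limma), or 0.42 and not called after quantile normalization. Eef1a1, the elongation factor that brings aminoacyl-tRNA to the ribosome, read 103, 102, 116, 125 and 109, and 178, 180, 172, 186 and 180. These groups did not overlap either, and the fitted difference of 0.69 (SE 0.08) held within 2-fold. First-site values of both genes lay within 10% of the maximum of their array. With no saturation limit known, both fitted differences may be lower bounds, and Eef1a1 cannot be taken to lie within 2-fold.

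Among the 10 brightest genes, Tuba1c was called, Tmsb4x (thymosin beta 4, which binds actin monomers) was unresolved at 0.87 and 8 were held. The held genes were Eef1a1, the tubulins Tubb2b (0.67) and Tubb5 (0.10), the ribosomal protein genes Rpl10 (0.47), Rpl19 (0.14), Rpl7 (0.60) and Rps23 (0.57), and Basp1 (-0.08), a membrane protein of growth cones. Basp1 read 97.1, 96.8, 105, 123 and 106 at the first site and 101, 101, 91.0, 112 and 93.8 at site 2, so the groups overlapped. First-site values of Tubb2b and Basp1 also lay within 10% of the maximum on every array, and those of Rpl19 and Tubb5 on several. Of the 97 tested probes brighter than 50 at the first site, 89 were held, 3 called higher and 1 lower. Over all tested probes 72.2% were held, 5.29% called higher and 1.92% lower. Of the 97, 26 were higher at site 2 on every array. Over all tested probes 13.2% had all site 2 arrays above all first-site arrays. With no saturation limit known, held at this brightness describes the deposited numbers and does not show that the transcripts lie within 2-fold. Actb, beta-actin, and Calm2, a calmodulin, were the other genes of a housekeeping list called higher at this brightness, at 54.6 against 111 (1.03) and 53.4 against 117 (1.13). Of the 30 tested genes of that list 4 were called higher, 0 lower and 23 (76.7%) held. After quantile normalization 0 genes of that list were called higher.

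**Figure D2:**
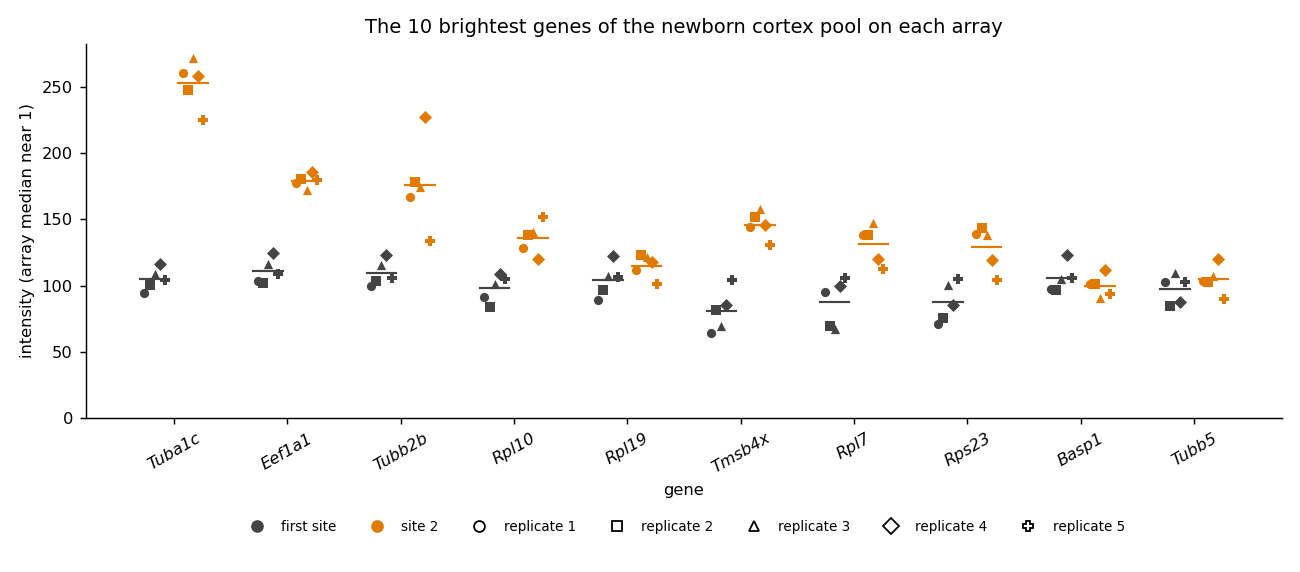
Intensity of the 10 brightest cortex genes on each array (linear axis from 0, no unit, array median near 1); grey is the first site, orange is site 2, the symbol gives the replicate number and the bar is the mean of 5 arrays. First-site values lie between 64.2 and 125, whereas Tuba1c reached 225 to 272 at site 2 and Basp1 stayed near its first-site level.

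The 10 largest upward differences of named genes all belonged to probes that read below the array median at the first site. Slc38a2, a neutral amino acid transporter, read 0.271, 0.267, 0.495, 0.281 and 0.804 at the first site and 4.52, 4.22, 4.27, 3.72 and 3.66 at site 2. The groups stood far apart, by 3.41 log2 (SE 0.45, adjusted p = 7.9e-06 in limma). Stk32c, a serine/threonine kinase, read 0.0587 to 0.128 and 0.612 to 1.15 (3.21), and Tra2a, a splicing regulator, 0.109 to 0.294 and 1.26 to 2.25 (3.01). Tnik (2.78), a kinase of the Wnt pathway, Max (2.71), the partner of Myc, Col19a1 (2.65), a collagen, and Mafg (2.47), a small Maf factor, were likewise separated without overlap. Ddx6 (2.50), an RNA helicase of mRNA decay, was called from values of at most 0.292 and read 0.24 with the floor at the 25th percentile. Cmtm2a had the largest difference of any named gene, 4.85 (SE 1.56), but this came from 2 arrays. It read 29.0 and 33.2 on site 2 replicates 2 and 3, 0.0539 and 0.0480 on replicates 1 and 4, had no value on replicate 5, and read 0.0318 to 0.0787 at the first site. The call was lost without replicate 2 (3.35) or replicate 3 (3.28), and with the 10 cortex arrays fitted alone.

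In the brightest class the 5 largest upward differences belonged to Epha7, Nfib, Ube3a, Klk11 and Ttc3. Nfib, a nuclear factor that drives glial and axon tract development in the forebrain, read 3.57, 3.85, 5.10, 3.72 and 3.15 at the first site and 12.1, 14.5, 13.9, 14.8 and 10.7 at site 2. Every site 2 array lay above every first-site array (1.78 log2, SE 0.18, adjusted p = 3.3e-07 in limma). Ube3a, the ubiquitin ligase lost in Angelman syndrome, read 4.05 to 6.87 and 17.5 to 19.7 (1.76), and Epha7, an ephrin receptor of axon guidance, 1.99 to 3.51 and 7.26 to 10.4 (1.82). Klk11, a kallikrein protease, and Ttc3, a ubiquitin ligase, differed by 1.75 and 1.68. None of these 5 lost its call in any setting tried.

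In the dimmest class, Sertad2 (2.42), a transcriptional coregulator, read 0.0563 to 0.0967 and 0.297 to 0.512 with no overlap. Mmp13, a collagenase, and Lifr, a cytokine receptor, were among the 5 largest there through site 2 replicate 5. Lifr read 4.75 on that array and 0.0465 to 0.100 on the other 4, against 0.00995 to 0.0808 at the first site. Without that array its difference was 1.18 in place of 2.37, and that of Mmp13 1.40 in place of 2.39. Both calls were lost with the floor at the 25th percentile (0.97 for Mmp13 and 0.92 for Lifr), after quantile normalization (1.99 and 1.93) and with the 10 cortex arrays fitted alone. That of Lifr was also lost after cyclic loess normalization (2.04), with the floor at the 5th percentile (1.78) and without first-site replicate 1 or 5. With the floor at the 25th percentile Sertad2 and Cmtm2a were still called.

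Of the 198 probes called lower, 71 and 68 fell in the 2 brighter classes, and several were tight within each site. Lcp2, an adaptor of T cell receptor signalling, read 0.957, 1.09, 0.976, 0.993 and 1.09 at the first site and 0.125, 0.134, 0.118, 0.164 and 0.109 at site 2. The groups were tight and did not overlap (-2.98 log2, SE 0.14, adjusted p = 1.0e-10 in limma). Anp32a, a nuclear phosphoprotein and inhibitor of protein phosphatase 2A, read 11.1 to 25.5 and 2.61 to 5.03 (-2.20), and Nipsnap2, a mitochondrial protein, 2.42 to 3.08 and 0.470 to 0.888 (-1.97). In the brightest class Psmb4, a proteasome subunit, read 32.1 to 40.6 on the first-site arrays and 8.43 to 11.6 on 4 site 2 arrays, with no value on replicate 3 (-1.74). Rpl26 (-1.47) and Dpf1 (-1.35), a neuron-specific subunit of the BAF chromatin remodeller, were also lower on every site 2 array. Rps7 was called at -1.62 and rested on site 2 replicate 3, where it read 1.67 against 10.9 to 12.4 on the 3 others with a value, and without that array it differed by -0.92 and was not called. Of the dimmest probes, Epb41l2 (-1.64), a cytoskeletal linker, Sval2 (-1.77) and Slfn5os (-1.44) were called lower, and all 3 calls were lost with the floor at the 25th percentile.

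Of the 24 gene lists examined, photoreceptor genes had the lowest median and the largest share called in this cortex RNA. Photoreceptors are the light-sensing cells of the retina. They carry an outer segment of stacked discs where rhodopsin activates transducin, transducin activates a phosphodiesterase, and arrestin and calcium-binding proteins end the response. Of 51 genes listed, 26 were tested, and 8 were called lower at site 2, 1 higher, 12 held and 5 unresolved, with a median difference of -0.56 log2 where over all tested probes 1.92% were called lower and the median was 0.08. The count called lower was 10 after quantile normalization, 7 after cyclic loess normalization, 6 with the floor at the 25th percentile and 9 without site 2 replicate 5. Such genes had been listed with earlier results of these data known, so the count is a description of the list.

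Gnat1, the alpha subunit of rod transducin, read 1.80, 5.24, 4.56, 3.44 and 0.905 on first-site replicates 1 to 5 and 0.163, 0.155, 0.116, 0.203 and 0.0954 at site 2. Every first-site array was higher, and the first-site arrays also differed among themselves by more than those of site 2 (-4.23 log2, SE 0.34, adjusted p = 3.9e-08 in limma). Sag, rod arrestin, read 0.906, 2.37, 2.12, 1.5 and 0.462, and then 0.179, 0.178, 0.238, 0.239 and 0.186. Again the groups did not overlap (-2.64, SE 0.31). Mgarp, a mitochondrial protein, read 1.02, 2.29, 2.60, 1.80 and 0.410 against 0.115 to 0.179 (-3.26). Its first-site arrays kept the order seen in Sag, apart from replicates 2 and 3.

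Rp1, Rom1 and Tulp1, of the outer segment's structure and transport, were lower as well, whereas Prph2 (-0.54), Unc119 (-0.59), Prom1 (0.15) and Rpgrip1 (0.58) were held. Rp1, which organises the axoneme of the outer segment, read 0.364, 0.994, 0.913, 0.669 and 0.160 against 0.0379 to 0.119 (-3.04). Rom1, a disc rim protein, read 0.658, 1.70, 0.992, 0.961 and 0.381 against 0.175 to 0.231 (-2.03). Tulp1, needed for protein transport to the outer segment, read 0.378, 0.932, 0.735, 0.651 and 0.324 against 0.178 to 0.256 (-1.44). For these 3 genes all site 2 arrays lay below all first-site arrays. Fabp12, a fatty acid binding protein, overlapped between sites (0.0357 to 0.442 against 0.0272 to 0.128) and differed by -1.70, or by -0.50, not called, with the floor. Its call was also lost with the 10 cortex arrays fitted alone. Guca1a, a guanylate cyclase activating protein, read 0.365 to 1.70 and, on site 2 replicates 1 to 4, 0.0774 to 0.364, while replicate 5 gave 3.07. Its difference of -1.92 (adjusted p = 0.036 in limma) became -2.84 without that array. The call was lost in several other settings, among them cyclic loess normalization (-1.74) and the 10 cortex arrays fitted alone.

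The 8 genes shared their order over the first-site arrays. Replicate 5 was the lowest in 8 of 8, replicate 2 the highest in 7 of 8, and replicates 2 and 3 were the highest pair in 8 of 8. Each array's summed intensity over the 8 genes was 5.81, 15.7, 13.8, 10.4 and 3.04 at the first site and 1.11, 1.10, 1.30, 1.42 and 3.97 at site 2, the last raised by Guca1a. Ptpn14, a tyrosine phosphatase that is not on the list, had the same order, at 0.987, 2.42, 1.94, 1.47 and 0.615 against 0.205 to 0.274 (-2.46, SE 0.25). Ptpn14 came in by its large difference, and its likeness was seen afterwards. The order was not limited to called genes. Rcvrn, which was held, also had replicates 2 and 3 highest and replicates 1 and 5 lowest, over a narrower range. The order was not counted over the remaining listed genes.

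Of the other photoreceptor genes 12 were held. Rcvrn, recoverin, read 1.31, 1.64, 1.58, 1.47 and 1.44 at the first site and 1.41, 1.60, 1.80, 1.61 and 1.15 at site 2, so that the groups overlapped (0.01, SE 0.13). Pde6g (-0.18) and Pde6a (-0.45), subunits of the rod phosphodiesterase, Prph2, the partner of Rom1 in disc rims, and Unc119, which carries transducin, were held too. Cngb3, a subunit of the cone cation channel, was called higher, at 0.108 to 0.321 against 0.340 to 0.475 (1.14, SE 0.19), and it was not called after quantile normalization (0.90) or with the floor at the 25th percentile (0.94). The cone genes Gnat2 (0.07) and Opn1mw (-0.65) were unresolved at intensities of 0.0871 to 0.137.

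The level of the same probes in the retina pool was set beside these values. Gnat1 in cortex stood at 2.47% of its retina level at the first site and 0.0868% at site 2. Its first-site retina value of 107.8 lay within the range of those arrays' maxima (98.4 to 121.5) and its site 2 cortex value of 0.141 below the 25th percentile of all values, so both are shares of deposited numbers, with no known limits at either end. For the other 7 called lower the shares ran from 0.365% (Fabp12) to 1.81% (Mgarp) at the first site and from 0.122% (Mgarp) to 0.343% (Guca1a) at site 2. Rcvrn stood at 3.19% and 2.73%, and Cngb3 at 13.2% and 27.1%. Of the 26 genes, 14 read at least 40 in first-site retina, and of these 8 were called lower, 5 held and 1 (Pde6b, -1.06) unresolved. The 8 called lower read 46.5 to 108 there. The 5 held genes lay in nearly the same range, namely Unc119 (91.2), Prph2 (66.1), Gnb1 (57.1), Pde6g (48.5) and Rcvrn (46.6). In cortex Unc119, Gnb1 and Pde6g stood at 8.05%, 13.7% and 34.4% of their retina level at the first site. At site 2 they stood at 4.7%, 9.63% and 18.5%. Prph2 stood at 1.28% and 0.817%. All site 2 arrays of Unc119 and Gnb1 lay below all first-site arrays, though both genes were held within 2-fold. Of the 12 below 40, 0 were called lower. The cut of 40 was not among the planned rules. It lies between Fabp12 (46.5), the lowest in retina of the genes called lower, and Pde6a (25.9). The split thus depends on where the cut was placed and is a description. Of 9 defining photoreceptor markers 7 were tested, none was at 0, and their summed intensity per array was 3.46 to 12.4 on the first-site arrays and 2.16 to 3.25 on the site 2 arrays. Whether retina RNA had a part in the first-site cortex values was not tested.

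**Figure D3:**
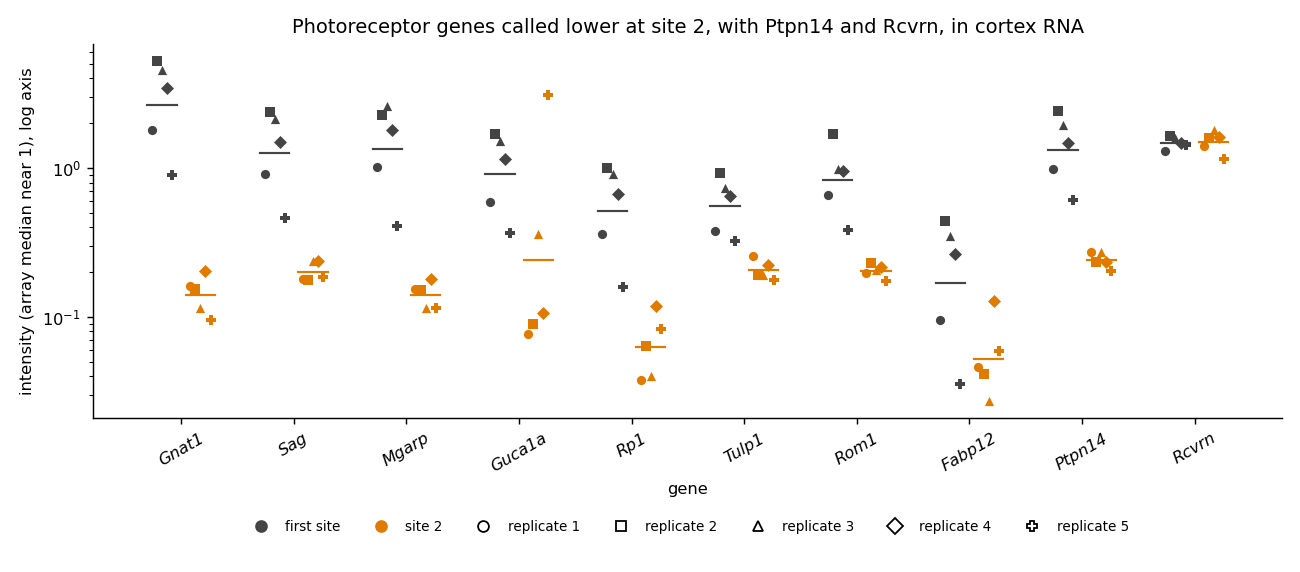
Intensity in cortex RNA (log axis, no unit, array median near 1) of the 8 photoreceptor genes called lower at site 2, of Ptpn14 and of Rcvrn; grey is the first site, orange is site 2, the symbol gives the replicate number and the bar is the geometric mean. In the first 9 genes replicate 5 is the lowest and replicates 2 and 3 the highest of the first site, and Guca1a reached 3.07 on site 2 replicate 5. Rcvrn overlapped between sites, with replicates 2 and 3 again the highest of the first site.

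The retina pool, run on its own arrays at both sites, served to test which shifts differed between the RNAs. There 645 probes (6.24%) were called, 495 higher (4.79%) and 150 lower (1.45%), and 72.8% were held. Over the 10339 probes the site differences of both pools correlated with Pearson's r of 0.69 and Spearman's rho of 0.70 (across probes, as a description; the pools share the sites but no arrays). Of the 547 cortex probes called higher, 94.3% were also above 0 in retina and 188 (34.4%, or 38.0% of the 495 called there) were called higher there. Of the 198 called lower, 96.5% were below 0 and 81 (40.9%, or 54.0% of the 150 called there) were called lower. Lcp2 differed by -3.11 in retina and -2.98 in cortex, Anp32a by -2.22 and -2.20, Stk32c by 2.73 and 3.21, and Slc38a2 by 2.32 and 3.41. The interaction did not pass for these 4 (adjusted p of 0.33 to 0.97 in limma), but the gap of 1.09 log2 (SE 0.64) for Slc38a2 is over 2-fold and was not resolved.

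The difference between the site shifts was tested as an interaction in limma. It was called for 75 probes (0.725%), with the cortex shift below the retina shift for 28 and above it for 47, and without site 2 replicate 5 of the cortex for 121. Photoreceptor genes supplied 8 of the 75. The largest were Gnat1 (-4.83 log2, adjusted p = 4.6e-05), Mgarp (-3.89), Ptpn14 (-3.33), Sag (-3.30) and Rom1 (-3.13), each lower at site 2 in cortex and above 0 in retina. Rom1 was the only probe of all tested that was called lower in cortex and called higher in retina (1.10). Rp1 (-2.66), Tulp1 (-1.55), the unresolved Susd3 (-1.23) and, upwards, Cngb3 (1.03) made up the 8, while Guca1a and Fabp12 did not pass (adjusted p = 0.29 and 0.35 in limma). Of the held genes, Pde6g (-0.90), Unc119 (-0.79) and Gnb1 (-0.51) stayed under 2-fold (adjusted p = 0.0032, 0.0048 and 0.027 in limma). Prph2 (-0.65) and Rcvrn (-0.22) did not pass (adjusted p = 0.18 and 0.48 in limma).

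Outside the photoreceptor list the interaction named a mixed set in both directions. Downwards it included Lrrc17 (-1.71), Oip5 (-1.39) and Sox10 (-1.12). These were held in cortex and had retina differences of 1.3, 1.8 and 1.33. Upwards, Gnaq, a G protein alpha subunit, differed by 1.56 in cortex and -0.23 in retina. It read 0.199 to 0.551 on the first-site cortex arrays and 0.570 to 2.20 on those of site 2, with no overlap. Cdc25c, a phosphatase that starts mitosis, differed by 1.11 and -0.70, and Pard6b, a cell polarity protein, by 1.08 and -0.69. The cortex calls of both were lost after quantile or cyclic loess normalization and with the floor at the 25th percentile. That of Pard6b was also lost without site 2 replicate 5 (1.00), without first-site replicate 5 (0.84) and with the floor at the 5th percentile (0.93). That of Cdc25c was also lost without site 2 replicate 3 (0.99). The tubulins Tubb2b and Tubb5, both held in cortex, differed from retina by 1.17 and 1.04 (retina differences of -0.50 and -0.94). Izumo3 (2.86) and Tspan1 (2.11) had retina differences of -2.39 and -1.88, and in cortex they differed by 0.47 and 0.23 and read at most 0.167. Emx2, a factor that patterns the cortex, went the opposite way to these, with -0.90 in cortex and 0.79 in retina (interaction -1.68). The cortex markers Emx1 (-1.16) and Lhx6 (-1.04) also had a called interaction with the cortex shift below that of retina.

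**Figure D4:**
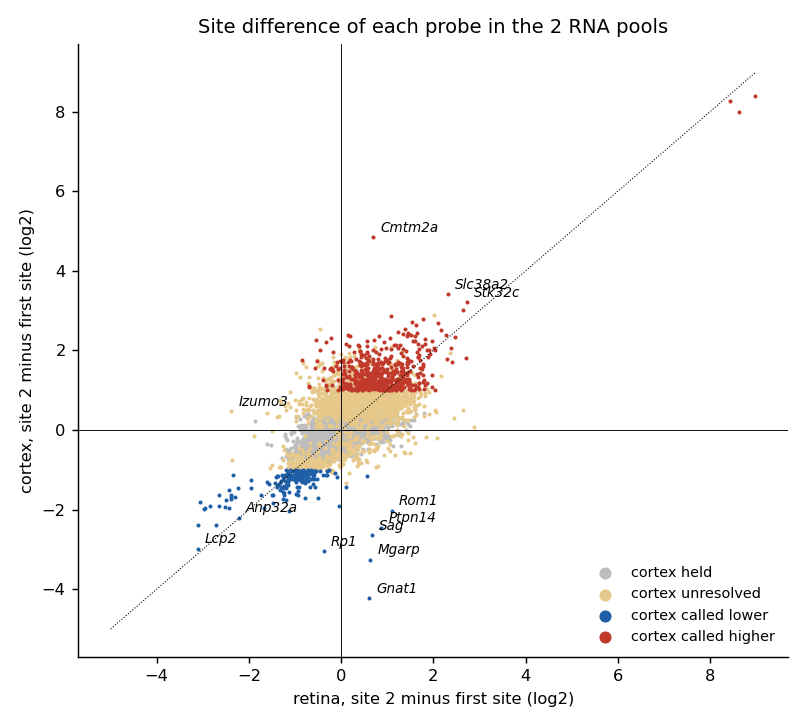
Site difference of each tested probe (site 2 minus first site, log2) in cortex against the same in retina, coloured by the cortex outcome; the dotted line marks equal differences. Most called probes lie in the quadrants where both pools have the same sign, and Gnat1, Mgarp, Sag, Ptpn14 and Rom1 lie low in cortex with retina differences of 0.60 to 1.10.

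Cell type and pathway genes of the cortex were described by 24 lists. Over all tested probes 5.29% were called higher, 1.92% lower and 72.2% held, and the counts below are to be read against these shares. Of 21 projection neuron genes 5 were called higher, 0 lower and 14 (66.7%) held (median 0.12, all probes 0.08). The 5 were Cux1 (2.54) and Cux2 (1.02), homeobox factors of upper-layer neurons, Neurod2 (1.05), Foxp1 (1.24) and Foxp2 (1.13). Cux1 read 0.108, 0.102, 0.202, 0.125 and 0.0831 at the first site and 0.637, 0.754, 0.656, 0.681 and 0.720 at site 2, and the groups did not overlap. Neurod2, a factor of differentiating excitatory neurons, read 2.49 to 3.08 and 4.99 to 6.56. After quantile or cyclic loess normalization 3 of the list were higher and 2 lower. The calls of Cux2 and Foxp2 were lost after quantile (0.84 and 0.92) and cyclic loess normalization (0.77 and 0.84). That of Cux2 was also lost with the floor at the 25th percentile (0.98) and without first-site replicate 4 or 5 or site 2 replicate 4. In retina the differences of the 5 ran from 0.39 (Foxp2) to 1.38 (Cux1), all upwards. Slc17a6, a vesicular glutamate transporter, differed by 0.00 by its brighter probe and by -0.34 by its dimmer one, and both were held.

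Of 19 interneuron genes 15 were held (78.9%, near the 72.2% of all tested probes), Gad2 and Maf were called higher and Calb2 lower. Gad2, an enzyme that makes GABA, read 0.180 to 0.238 on the first-site arrays and 0.601 to 0.640 on the site 2 arrays, tight and apart (1.52, SE 0.10, adjusted p = 5.6e-09 in limma). Calb2, calretinin, read 6.29 to 7.31 and 2.72 to 3.49, also apart (-1.16, SE 0.07), though after cyclic loess normalization it fell just short of 2-fold and was not called. Of 15 genes of progenitors and radial glia 14 (93.3%) were held and 0 called, and Nes, nestin, was unresolved at 0.80 and called at 1.02 after quantile normalization. Pax6, a factor of radial glia, read 2.23 to 2.52 and 1.11 to 1.60 with no overlap and was held at -0.74, and Notch1 differed by 0.02.

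In the list of immature neurons and axon growth 4 of 28 genes were called higher, 0 lower and 19 held (67.9%, near the 72.2% of all tested probes), with a median of 0.35. The called genes were Sox4 (1.47), a factor of newborn neurons, Dpysl3 (1.24), a growth-cone protein, and Elavl3 (1.21) and Elavl4 (1.09), RNA-binding proteins of neurons. Sox4 read 0.438 to 0.732 and 1.35 to 1.96 with no overlap. The count was 5 after quantile or cyclic loess normalization, with 0 lower. Stmn4, a stathmin that regulates microtubules, read 39.7 to 53.0 and 43.4 to 51.7 and differed by 0.01. Of 42 cell cycle genes 34 (81.0%) were held, 3 called higher and 0 lower, a called share of 7.14% where all tested probes had 7.21%. Ccnd2, cyclin D2, read 1.28, 0.951, 1.35, 1.56 and 1.27 at the first site and 5.17, 5.91, 6.94, 6.27 and 5.54 at site 2 (2.23, SE 0.16, adjusted p = 1.5e-08 in limma), the groups far apart. The others were Pola1 and Cdc25c, both in the dimmest class, and after quantile normalization 1 gene of the list was higher and 1 lower. Cdk1, the mitotic kinase, differed by 0.00.

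Of 24 genes of synaptic vesicles and release 21 (87.5%) were held and 0 called, from Napa (-0.66) to Pclo (0.84, unresolved). Of 11 ionotropic glutamate receptor genes 6 (54.5%) were held and 2 called higher. Gria2, an AMPA receptor subunit, was called at 2.62 against 6.12 (1.22). Grin2b, an NMDA receptor subunit of young neurons, read 0.0297 to 0.114 at the first site, 0.139 to 0.230 on site 2 replicates 1 to 4 and 2.64 on replicate 5. Its difference of 2.31 was 1.55 without that array and still called, and 0.84 and not called with the floor at the 25th percentile. Among receptors for GABA and glycine 6 of 11 genes (54.5%) were held, and Gabbr1, a GABA-B subunit, was called higher at 0.205 to 1.13 against 1.45 to 2.04 (1.83, and 1.89 in retina).

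Lists of glia, vessels and blood differed in their held share. It was 86.7% for microglia and macrophages, 83.3% for endothelial cells, 71.4% for astrocytes, 55.6% for erythroid cells (5 of 9) and 54.5% for the oligodendrocyte lineage (6 of 11), against 72.2% of all tested probes. Sox9, a factor of astrocytes and radial glia, was higher (0.183 to 0.423 against 0.552 to 0.878, 1.55), and Aldoc, an aldolase of astrocytes, lower (18.5 to 22.8 against 8.39 to 11.1, -1.04), while 10 of 14 astrocyte genes were held. Pdgfra, the receptor of oligodendrocyte precursors, read 18.1 to 21.7 and 8.05 to 10.8 (-1.03). The groups of Aldoc and Pdgfra did not overlap, but both calls sat at the 2-fold limit and were lost without site 2 replicate 5 (-0.97 each) and after quantile or cyclic loess normalization. Of 15 microglia and macrophage genes 13 were held and 0 called, and of 18 endothelial genes 15 and 0. Ptprc (1.42) and Flt1 (1.28) topped these lists through site 2 replicate 5 and differed by 0.59 and 0.46 without it. Gata1, an erythroid factor, Mip, a lens protein, and Junb, an immediate early factor, were called higher (1.41, 1.63 and 1.73), and all 3 calls were lost without that array (0.79, 0.82 and 0.75), after quantile or cyclic loess normalization and with the floor at the 25th percentile. The same 3 calls were lost with the 10 cortex arrays fitted alone. Mgp, a matrix protein of vessels and meninges, differed by -1.12, and it fell just short of 2-fold after cyclic loess normalization.

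Of 22 neuropeptide and pituitary hormone genes 2 were called lower, 1 higher and 14 (63.6%) held. The called share was 13.6%, where all tested probes had 7.21%, with 1.92% called lower. Gh, growth hormone, a pituitary transcript, read 11.8, 10.5, 11.4, 12.3 and 11.0 at the first site and 5.30, 5.63, 5.70, 6.26 and 4.42 at site 2. The groups were apart (-1.07, SE 0.16), and the difference was not called without site 2 replicate 5 (-0.99) or after quantile normalization (-0.93). The other pituitary markers Prl and Pomc were held (0.12 and 0.31), and the summed intensity of the 3, most of it from Gh, was 11.4 to 13.3 and 5.37 to 7.43. Pdyn, prodynorphin, read 0.448 to 0.534 and 0.172 to 0.263 (-1.17), and Lhb, the beta subunit of luteinizing hormone, was higher at 0.0889 to 0.168 against 0.207 to 0.291 (1.04, lost after quantile normalization at 0.61, cyclic loess normalization at 0.74 and the floor at the 25th percentile at 0.36).

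Of the 24 lists, oxidative phosphorylation had the largest share held, and all but 1 of its tested genes were in the brightest class. Of 46 genes of oxidative phosphorylation 44 were held (95.7%) and 1, Atp5k, an ATP synthase subunit, was called lower at -1.13, a call lost after quantile normalization (-0.95), just short of 2-fold after cyclic loess normalization, and lost without site 2 replicate 5 (-0.99). Cox6c, a cytochrome oxidase subunit, read 52.9 to 64.3 and 52.9 to 65.1, almost the same span. Of 50 ribosomal protein genes 42 (84.0%) were held and 5 called lower, where 1.92% of all tested probes were called lower. The 5 were Rpl26, Rps7, Rpl27 (-1.22), Rpl27a (-1.21) and Rpl8 (-1.01), while Rpl35 was unresolved at 0.85. Members lay on both sides of 0 (27 above and 23 below), and the list median of 0.12 turned to -0.13 after quantile normalization. Of 19 glycolysis genes 17 (89.5%) were held and 2 (10.5%) lower, Aldoc and Slc2a1, the glucose transporter of the blood-brain barrier, which read 1.93 to 2.31 and 0.509 to 0.876 without overlap (-1.63, SE 0.13). Of 32 chaperone genes 27 (84.4%) were held and 1 (3.13%) was called lower, Tcp1, a subunit of the chaperonin CCT (5.30 to 7.05 against 2.23 to 3.26, -1.21).

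**Figure D5:**
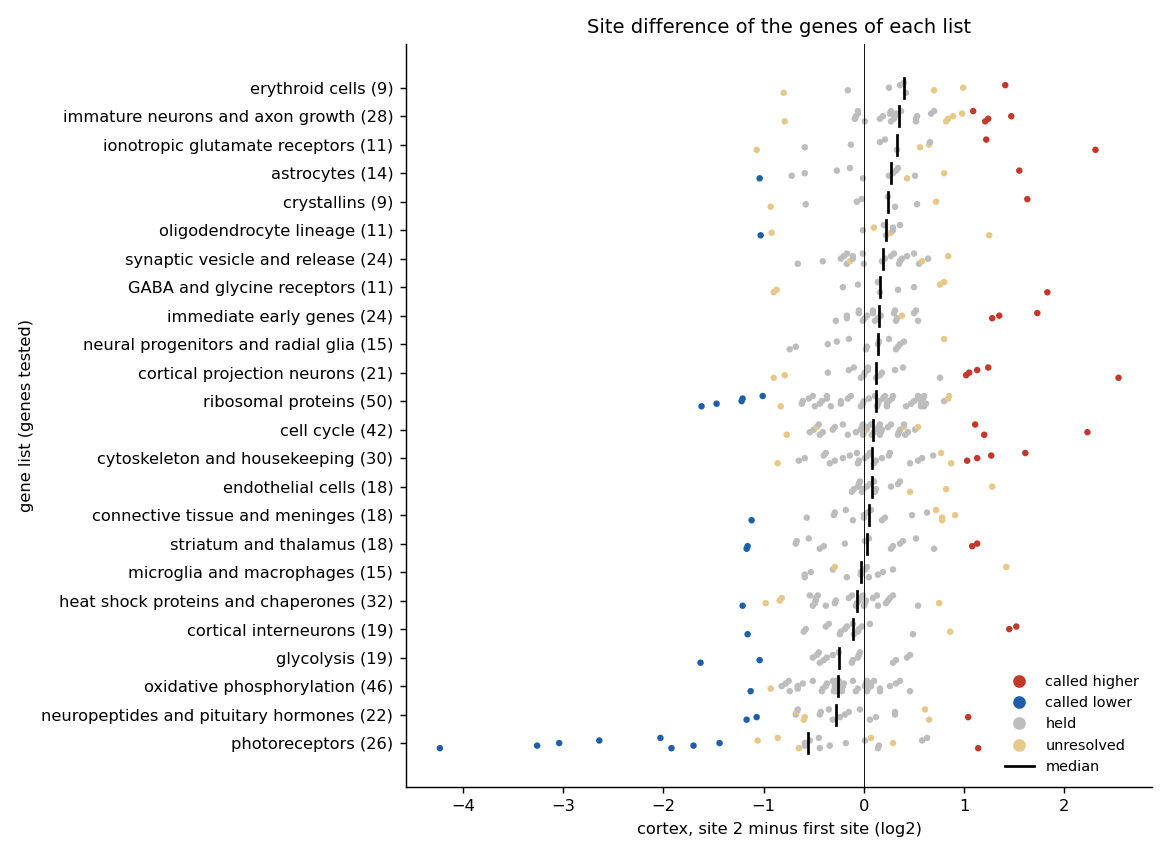
Site difference (site 2 minus first site, log2) of every tested gene of 24 lists in cortex, one row per list with the number of genes tested, coloured by outcome; the black tick is the list's median. Medians ran from -0.56 (photoreceptors) to 0.40 (erythroid cells), and single photoreceptor genes reached -4.23.

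Some probes could be read at 1 site only. Site 2 arrays had 167 to 217 blank values each, against 22 to 33 at the first site (exact 2-sided permutation p = 0.0079, adjusted p = 0.0095). Of all probes, 117 had a value on all 5 first-site arrays and on at most 2 of site 2, and 16 were the reverse. The 117 were not only dim. Hmgn2, a nucleosome-binding protein, read 78.7 at the first site and had 1 value at site 2, and Ddx46 (65.6), a splicing helicase, Sptan1 (56.9), a spectrin of the neuronal membrane skeleton, Tspan3 (51.1), a tetraspanin, and Rpl10a (50.4) had none there. In reverse, Ndufa4, a mitochondrial protein, read 70.6 at site 2 with no value at the first site, followed by Tpgs2 (11.8), Rbm3 (7.98), a cold-induced RNA-binding protein, Insm1 (1.32), a factor of neuronal progenitors, and Plscr3 (1.23). Why these values are blank is not given in the sources used here.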

How the data were processed

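Per the labels' protocols, total RNA was labelled by the CodeLink assay; no source used here gives the scanner software, background correction, scaling or the meaning of blanks. The deposited values are intensities on a linear scale, 1 per probe and array. Symbols came from the platform annotation (9378 of 10500 probes with 1 symbol, 1114 with none), with names checked against a RefSeq gene table. A gene with several probes was represented by the brightest. Values at or below 0 were left out and log2 was taken; 10339 probes with at least 3 values in each of 4 groups were tested and 161 were not. One limma 3.58.1 model (R 4.3.3; lmFit, eBayes; 16 residual and 2.16 prior degrees of freedom) covered the 20 arrays, with Benjamini-Hochberg adjustment over all tested probes. The code was tested on simulated data. Array summaries were compared with exact permutation tests.

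The genes named were the 10 largest called differences each way, the 5 largest each way in the brightest and dimmest brightness classes, the 10 brightest, the 3 of smallest range per brightness class, the extremes and the member nearest 0 of each list, every called member of 4 lists (photoreceptor, crystallin, neuropeptide and projection neuron), the 5 largest interactions each way and the 5 brightest probes read at 1 site only; other genes named were chosen after their values were seen. The arrays, lists and rules were chosen with earlier results of these data known. Array numbers did not pair the arrays of both sites.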

Additional observations from a re-analysis of the deposited data

Results flagged for a closer look

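Single arrays stood apart in 26 of the 269 groups of 5 values formed by the named genes at each site, by the gap to the nearest value against the whole range. Chance flags about 1 in 20 groups that were not selected. These genes were named for large differences, list extremes or small range, so the 26 cannot be set against that rate. Of the 26, 18 lay on site 2 replicate 5, which also stood apart in its spread (0.392 log2 against 0.132 to 0.184). On that array 12 genes read high. They were Mapt (4.82), Lifr (4.75), Col6a1 (4.46), Mmp13 (4.23), Ocln (3.18), Junb (3.11), Grin2b (2.64), Mip (1.93), Ptprc (1.88), Cldn11 (1.84), Gata1 (1.78) and Flt1 (1.62), and on the other site 2 arrays they read from 0.0465 (Lifr) to 1.28 (Ocln). The same array read low for Klk11 (9.52), Dpf1 (3.47), Car2 (1.25), Mgp (0.861), Plvap (0.745) and Adcyap1 (0.538). The call of Mapt, a microtubule protein of axons, was lost without it (0.90 in place of 1.61) and after quantile normalization (1.45). Fitting the 10 cortex arrays alone also lost the call of Mapt.

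The other values apart were Stk32c on first-site replicate 2 (0.0587), Nipsnap2 (3.08) and Cfap97 (0.137) on first-site replicate 4, Calb2 (6.29) and Sparc (13.5) on first-site replicate 1, Rps7 (1.67) and Spata5 (1.18) on site 2 replicate 3 and Grin2c (0.00759) on site 2 replicate 1. Their part in the calls is given above for Rps7.

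For 17 of the 135 genes named by rule the interaction between site and tissue was called in limma. The cortex shift lay below that of retina for Gnat1 (-4.83), Mgarp (-3.89), Ptpn14 (-3.33), Sag (-3.30), Rom1 (-3.13), Rp1 (-2.66), Emx2 (-1.68) and Tulp1 (-1.55). It lay above for Izumo3 (2.86), Tspan1 (2.11), Cdc25c (1.81), Gnaq (1.80), Pard6b (1.77), Tubb2b (1.17), Tubb5 (1.04), Lhb (1.04) and Cngb3 (1.03). Other genes named in the text were called too, among them Susd3 (-1.23), Emx1 (-1.16) and Lhx6 (-1.04).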

How the results depend on the processing

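The counts depended on the scaling, on how dim values were treated and on the limit of size. The 547 probes called higher became 251 after quantile normalization, 268 after cyclic loess normalization, 214 with the floor at the 25th percentile and 254 with the dimmest class left out. At an adjusted p alone 2386 were higher and 2455 lower, and with a 1.5-fold limit 1360 and 1024. Held probes numbered 4154 when the interval had to lie within 1.5-fold. In the dimmest class the called share of 12.2% became 3.83% (quantile), 3.91% (loess, added after seeing the data) and 0.232% (floor), and the held share of 36.5% became 88.9% (floor). The called share of the brightest class, 4.18%, became 2.79% (loess, added after seeing the data). The spread difference of 0.06 was 0.0723 with the floor (exact permutation p = 0.016). Leaving out 1 cortex array in turn gave 474 to 585 higher, 160 to 227 lower, 7227 to 7637 held, 56 to 121 interactions and spread differences of -0.0229 to 0.0949, the lowest without site 2 replicate 5. The other settings kept these results within 1.5 times. Same-numbered arrays of both sites did not deviate together (r of -0.0679 to 0.0536), and a replicate block gave 543 higher, 197 lower, 7437 held and 63 interactions; in 1 of 5 numbers an array matched its own number best. Of 66 named genes called, 28 lost the call in at least 1 setting and 0 reversed. The call was lost by 17 under quantile normalization, 15 under loess, 17 with the floor and 9 without site 2 replicate 5. With the 10 cortex arrays fitted alone 9 lost it. Causes beyond these settings were not tested. Background and detection limits are unknown, which limits what dim probes can show.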

Other observations

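The 3 largest site differences of the cortex pool belonged to probes with no gene name here, numbers 2976, 2977 and 2978 of the platform. They read 0.0427, 0.0363 and 0.0458 at the first site and 13.1, 12.3 and 11.7 at site 2 (adjusted p of 1.0e-10 or less in limma). The first-site values lay near the 5th percentile of all values, 0.0445, where the background is not known, so no fold is given. In retina they read 0.0420, 0.0268 and 0.0339 at the first site and 14.4, 13.4 and 13.4 at site 2. What they measure was not analysed here.

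For 141 genes more than 1 probe was tested, and in 0 of them did probes carry opposite calls. Canx, calnexin, differed by 0.75 by its brighter probe and by 0.05 by its dimmer one. Sox11 differed by -0.06 by its brighter probe, which read 12.6 at the first site, and by 0.25 by a dimmer one that read 0.75.

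Of the 117 probes that lost their values at site 2, 25 read as bright at the first site as the top brightness class of the tested probes and 29 as dim as the bottom brightness class, and 101 probes of the table had no value on any site 2 array of the cortex.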
